A study of Homo sapiens with 46 samples.

Results

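ACTA2, SPARC, ITGA8, FLRT2 and EBF2 are 5 nuclear genes of the 58735 listed in an RNA-seq experiment on silencing of mitochondrial translation, and all 5 are among the 20272 genes that passed the filter on low counts. They were chosen for earlier results after silencing of COX1, COX2 or COX3, against control for ACTA2, ITGA8, FLRT2 and EBF2 (FLRT2 also after ND1) and against the other 10 treatments for SPARC, so their values in those contrasts describe the choice and carry no test. Against control, 4 of the 5 genes were called lower after COX2 silencing, 1 after COX3 silencing, 1 after ND1 silencing (FLRT2) and none after COX1 silencing. SPARC was called in no treatment against control, and stood out only when COX3 silencing was set against the mean of the other 10 treatments. The group was put together as matrix and adhesion genes, but ACTA2, an actin of the cytoskeleton, and EBF2, a transcription factor, are neither.

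SPARC is a secreted, calcium- and collagen-binding matricellular glycoprotein that modulates how cells attach to the matrix. ITGA8 is the integrin alpha chain that pairs with ITGB1 and binds RGD-containing ligands such as fibronectin and nephronectin, and it is known from kidney development. FLRT2 is a leucine-rich repeat transmembrane protein that binds UNC5 receptors and latrophilins on neighbouring cells. ACTA2 is smooth muscle alpha-actin, a contractile-type actin whose promoter is regulated by serum response factor (SRF). EBF2 is a DNA-binding factor of the early B-cell factor family, known from neuronal and adipose development.

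The cells were HEK293T, wild type by their labels and named HEK293-Flp-In T-Rex in the study's methods, a human embryonic kidney line with epithelial-like morphology. For 48 hours they received 2 µM of a chimera of the presequence pCox4 and a morpholino, an antisense oligomer that blocks translation of 1 mitochondrial mRNA, together with the delivery peptide Endo-Porter. Control cells received pCox4 without a morpholino, also with Endo-Porter. Each of 11 mRNAs was silenced (COX1, COX2 and COX3 of complex IV; ATP6 and ATP8 of ATP synthase; CYTB of complex III; ND1, ND2, ND3, ND4L and ND5 of complex I), in 46 poly(A) libraries: 4 per condition, but 3 for COX2 (replicates 2, 3 and 4) and 3 for ND2 (replicates 1, 3 and 4). Replicates 1 and 2 were made on other days and with other reagents than replicates 3 and 4, and are called batch 1 (22 libraries) and batch 2 (24 libraries). COX2 and ND2 silencing have 1 library each in batch 1.

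Silencing of the 3 COX mRNAs is the treatment by which the 5 genes were picked, so the sites at which those chimeras were designed to bind are shown, read from the GENCODE release 29 transcripts on GRCh38. The sequences are written 5′ to 3′ as the mRNA strand in DNA letters, and capitals mark the bases of the start codon that the site includes. The sites lie at chrM:5904-5922 in MT-CO1, chrM:7586-7608 in MT-CO2 and chrM:9208-9225 in MT-CO3, all on the plus strand and within the coding sequence.
COX1 site: ATGttcgccgaccgttgac
COX2 site: ATGgcacatgcagcgcaagtagg
COX3 site: TGacccaccaatcacatg
No transcript of the 5 genes holds any of these sites. The longest exact run that a site shares with a transcript of the 5 genes was 10 bases, between the COX2 site and EBF2. Runs of at least that length occur in 6.63% of the 14804 tested protein-coding nuclear genes. In the other 14 pairs of a site and a gene the longest run was 6 to 9 bases, a length reached in 14.6% to 96.7% of those genes. These are counts of shared letters, and binding was not measured.

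In the check of the silenced mRNAs themselves, MT-CO1 fell after COX1 silencing by 1.33 on the log2 scale (SE 0.069; edgeR quasi-likelihood test, adjusted p = 2.25e-21) and MT-CO3 fell after COX3 silencing by 0.49 (SE 0.065; adjusted p = 9.99e-06). MT-CO2 after COX2 silencing differed by -0.22 (SE 0.080; adjusted p = 0.182), which did not pass the threshold. The chimeras block translation, so an mRNA level is an indirect check. Total counts per library ranged from 18876395 to 100698084 with a median of 23413171, and COX3 replicate 4 was the only library above 28121898. All 11 epithelial and mesenchymal markers had reads in every library. Among them were the epithelial EPCAM (204 CPM on average) and KRT8 (410 CPM) and the mesenchymal VIM (421 CPM) and CDH2 (101 CPM). The epithelial CDH1 (12.8 CPM) and the mesenchymal TWIST1 (12.9 CPM) were lower, and the mesenchymal SNAI2 was lowest at 0.60 CPM. Of 9 fibroblast markers, COL1A1 (25.4 CPM), LUM (4.83 CPM) and PDGFRA (1.60 CPM) were highest, DCN, PDGFRB and COL3A1 had means of 0.32 to 0.69 CPM, and THY1, COL1A2 and FAP were at or near 0. The summed level of the list ranged from 29.8 to 36.0 CPM in control and from 28.7 to 41.5 CPM in the treated libraries. The endothelial markers PECAM1, CDH5, VWF, KDR and TEK had means of 0.07 to 0.65 CPM. The part of other cell types in the results was not tested.

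CPM is a count divided by the library's TMM-normalized size and scaled to 1000000 counts. Per kilobase of the deposited gene length, the mean level over the 46 libraries was highest for ACTA2 at 3.67 CPM per kilobase, followed by ITGA8 at 1.65, SPARC at 1.18, FLRT2 at 1.06 and EBF2 at 0.69. All 5 genes are thus expressed at low to moderate levels, ranking between 9056 and 14617 of the genes tested on that scale. Raw counts in a library ranged from 55 to 405 for SPARC and from 55 to 527 for EBF2, the genes with the fewest reads. They reached 3633 for FLRT2, in the deepest library. The plot of levels by treatment and batch gives all 46 values of each gene.

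**Figure D1:**
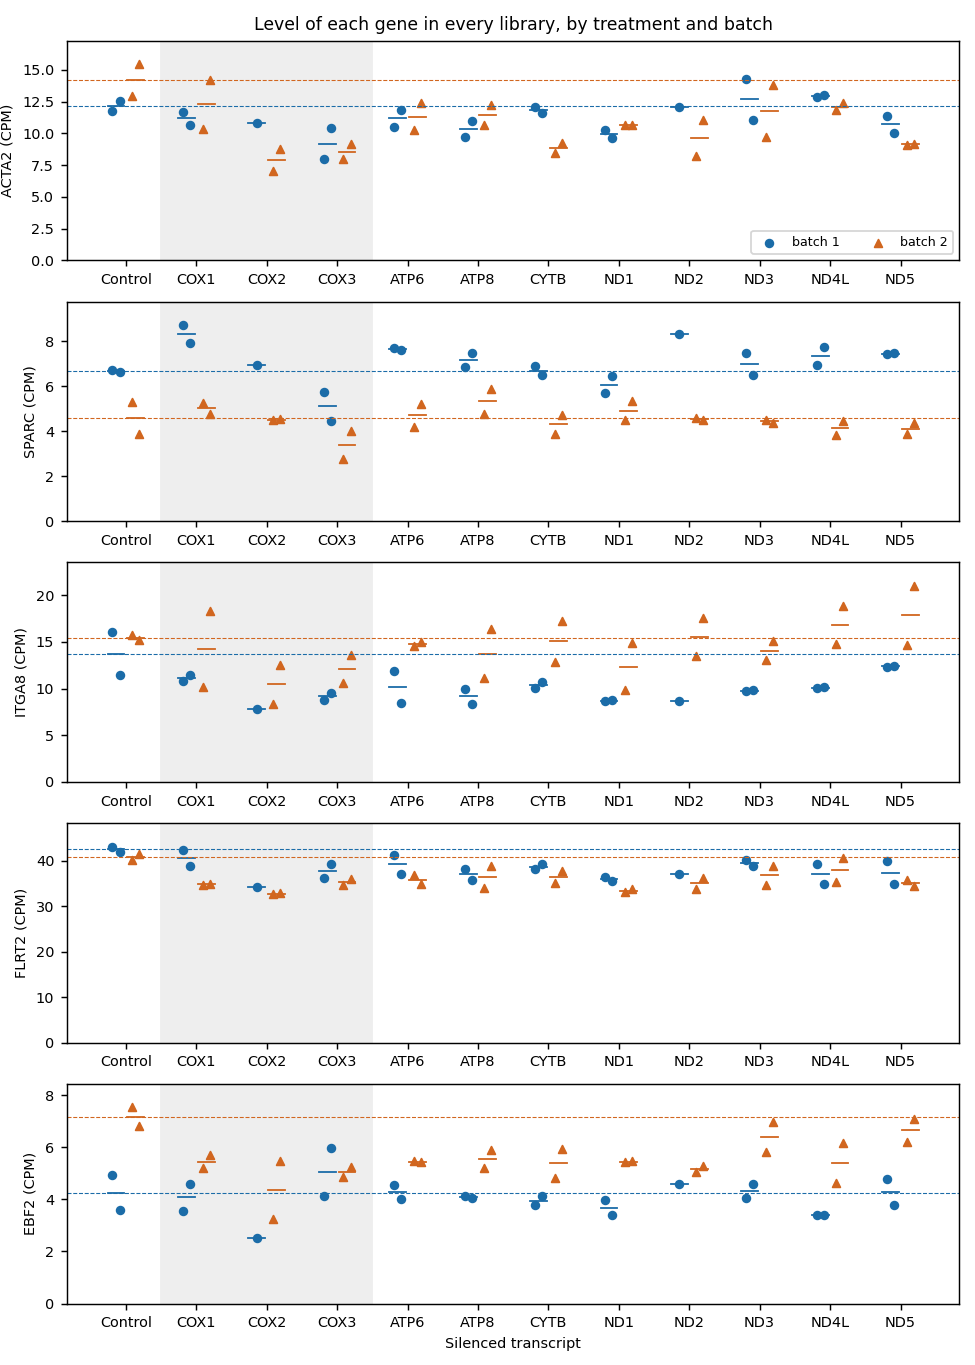
Level of ACTA2, SPARC, ITGA8, FLRT2 and EBF2 (y axis, CPM from 0) in each of 46 libraries, by silenced transcript (x axis). Blue circles are batch 1 and orange triangles batch 2, short bars are batch means, dashed lines are the control mean of each batch, and the shaded columns are COX1, COX2 and COX3. All FLRT2 points of treated libraries lie under the dashed line of their batch, and SPARC, ITGA8 and EBF2 differ more between batches than between most treatments.

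ACTA2 (ENSG00000107796, chr10:88935074-88991339, minus strand) had a fitted value below control in each of the 11 treatments. Control libraries held 11.8 and 12.5 CPM in batch 1 and 13.0 and 15.4 CPM in batch 2. After COX2 silencing the levels were 10.8 CPM in batch 1 and 7.07 and 8.76 CPM in batch 2. After COX3 silencing they were 7.96 and 10.4 CPM in batch 1 and 7.96 and 9.14 CPM in batch 2. All libraries of both treatments were below every control library, and this also held after the mean of all libraries of a batch was subtracted on the log2 scale, here called batch centring. The fitted log2 fold change was -0.57 (SE 0.14) for COX2 and -0.56 (SE 0.12) for COX3, or 0.675 and 0.678 times control. Such separation from all control libraries was found in 5.62% of genes for COX2 and 3.3% for COX3. COX1 silencing gave 11.7 and 10.7 CPM in batch 1 and 10.4 and 14.2 CPM in batch 2, which overlaps control, with a log2 fold change of -0.17 (SE 0.12).

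In the other treatments the log2 fold change of ACTA2 ranged from -0.41 after ND5 silencing (SE 0.12) to -0.07 after ND4L silencing (SE 0.12). ND5 libraries held 11.4, 10.0, 9.09 and 9.16 CPM in replicates 1 to 4, and ND4L libraries 12.9, 13.0, 11.9 and 12.3 CPM. After batch centring, ND1 and ND5 were the 2 of these 8 treatments in which all libraries lay below all control libraries, a separation found in 2.94% of all pairs of a gene and one of the 8. The batches did not contribute equally. After COX2 silencing the log2 fold change was -0.16 in batch 1 (1 library) and -0.86 in batch 2 (2 libraries), and after CYTB silencing -0.03 and -0.68, with 2 libraries in each batch.

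A pair of RefSeq start sites of ACTA2 is listed in the promoter table used here (build GRCh38.p14), and the 250 bases before the downstream start are shown because ACTA2 had values below control in all 11 treatments and this window holds SRF-type motifs. The window is chr10:88952774-88953023 on the minus strand, within the span of the gene, and overlaps no exon of GENCODE release 29. Capitals mark matches, on either strand, to the MCAT motif CATTCC and to the CArG box, the SRF site, with at most 1 mismatch.
ACTA2 upstream window: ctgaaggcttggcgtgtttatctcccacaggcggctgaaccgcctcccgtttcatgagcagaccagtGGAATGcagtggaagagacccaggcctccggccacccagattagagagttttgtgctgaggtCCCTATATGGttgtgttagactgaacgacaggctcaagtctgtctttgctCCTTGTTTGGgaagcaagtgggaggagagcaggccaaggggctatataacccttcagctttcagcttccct
The CArG-like matches begin at -121 and -71 from the start site and the MCAT match at -183, with no overlap between them. The window holds no full CArG box. Across 35116 promoter windows of the same length, 16.8% hold a CArG box with at most 1 mismatch, 1.16% a full one and 11.9% a CATTCC, each on either strand. The counts are per gene and do not say which start was used. The windows of SPARC, ITGA8, FLRT2 and the upstream start of ACTA2 held neither kind of CArG box. For EBF2 no window was used.

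ITGA8 (ENSG00000077943, chr10:15513949-15720125, minus strand) had the lowest fitted value of the 5 genes in any treatment. Control libraries held 16.0 and 11.4 CPM in batch 1 and 15.7 and 15.2 CPM in batch 2. After COX2 silencing the levels were 7.77 CPM in batch 1 and 8.38 and 12.6 CPM in batch 2, a log2 fold change of -0.71 (SE 0.16) or 0.610 times control. The single batch 1 library and 1 of the 2 batch 2 libraries were below all control libraries, and the other lay within their range until the batch was centred out. COX3 silencing gave 8.83 and 9.47 CPM in batch 1 and 10.6 and 13.6 CPM in batch 2, with a log2 fold change of -0.46 (SE 0.14). COX1 silencing gave 10.8, 11.5, 10.2 and 18.3 CPM in replicates 1 to 4, and its highest library was above all control libraries.

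After ND1 silencing ITGA8 had a log2 fold change of -0.49 (SE 0.15), below that of COX3. ND1 libraries held 8.65 and 8.73 CPM in batch 1 and 9.87 and 14.9 CPM in batch 2. ND5 silencing was the only treatment in which the fitted value of ITGA8 was not below control, at 0.03 (SE 0.14), with 12.3 and 12.5 CPM in batch 1 and 14.7 and 21.0 CPM in batch 2. Across the 11 treatments 4 had all libraries below all control libraries after batch centring: COX2, COX3, ND1 and ND3. Such separation was found in 3.12% of all pairs of a gene and a treatment. ITGA8 was chosen on COX contrasts, so its COX2 and COX3 separation describes the choice.

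FLRT2 (ENSG00000185070, chr14:85530144-85654426, plus strand) had the smallest spread and the most even difference. Control libraries held 43.1 and 42.0 CPM in batch 1 and 40.2 and 41.5 CPM in batch 2. After COX2 silencing the levels were 34.2 CPM in batch 1 and 32.6 and 32.8 CPM in batch 2, all below every control library, for a log2 fold change of -0.31 (SE 0.064) or 0.805 times control. ND1 silencing gave 36.5 and 35.6 CPM in batch 1 and 33.1 and 33.8 CPM in batch 2, also below all controls, with a log2 fold change of -0.26 (SE 0.058). COX1 and COX3 silencing gave -0.15 (SE 0.058) and -0.19 (SE 0.057).

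FLRT2 was below the control mean of its batch in all 42 treated libraries, from 79.9% to 99.5% of that mean with a median of 86.8%, while the 4 control libraries spanned 98.4% to 101.6%. Only 23 of the 20272 genes, 0.113%, had all 42 treated libraries on that side. All 31 libraries of the treatments without a COX target were below as well, as in 0.168% of genes. All treatments are compared here with the same 4 control libraries, and a low value in all of them cannot be told apart from a high value in those controls. In 9 of the 11 treatments, all but COX1 and ND4L, every library was below every control library after batch centring, against 3.12% of all pairs of a gene and a treatment.

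EBF2 (ENSG00000221818, chr8:25841730-26045397, minus strand) had its lowest value after COX2 silencing. Control libraries held 4.92 and 3.57 CPM in batch 1 and 7.52 and 6.82 CPM in batch 2. After COX2 silencing the levels were 2.53 CPM in batch 1 and 3.25 and 5.46 CPM in batch 2, each below both controls of its batch, for a log2 fold change of -0.69 (SE 0.17) or 0.622 times control. These are 45.4% to 76.1% of the control mean of their batch, where the control libraries spanned 84.1% to 115.9%. After batch centring the groups overlapped, and EBF2 had no treatment in which they did not. COX1 silencing gave -0.24 (SE 0.15), with 3.53 and 4.60 CPM in batch 1 and 5.18 and 5.71 CPM in batch 2.

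COX3 silencing gave a log2 fold change of EBF2 of only -0.14 (SE 0.14), and the batches went in opposite directions. Its levels were 4.14 and 5.96 CPM in batch 1, where the log2 fold change was 0.25, and 4.86 and 5.22 CPM in batch 2, where it was -0.50. In the other 8 treatments the value ranged from -0.36 after ND4L silencing (SE 0.15) to -0.05 after ND5 silencing (SE 0.15). The 16 libraries of those treatments in batch 2 held 4.62 to 7.08 CPM. The control libraries of that batch held 7.52 and 6.82 CPM, so the ranges overlapped.

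SPARC (ENSG00000113140, chr5:151661096-151687165, minus strand) was the exception among the 5 genes. Control libraries held 6.70 and 6.61 CPM in batch 1 and 5.30 and 3.88 CPM in batch 2. COX3 silencing gave 5.74 and 4.47 CPM in batch 1 and 2.75 and 4.01 CPM in batch 2, and 3 of these 4 libraries were below both controls of their batch. The log2 fold change was -0.37 (SE 0.12), with -0.38 in each batch, and it was not called against control. COX1 silencing lay on the other side, with 8.72 and 7.93 CPM in batch 1 and 5.27 and 4.76 CPM in batch 2 and a log2 fold change of 0.24 (SE 0.12). After COX2 silencing the value was 0.03 (SE 0.14), with 6.94 CPM in batch 1 and 4.49 and 4.54 CPM in batch 2.

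Set against the mean of the other 10 treatments, SPARC was lower after COX3 silencing by a log2 difference of -0.44 (SE 0.091), past the threshold in a contrast that 11 genes or 0.0543% passed. SPARC was chosen on this contrast, so its value is a description and nothing follows from its passing. The same contrast gave 0.23 (SE 0.090) for COX1 and -0.0021 (SE 0.11) for COX2, neither past it (11 genes or 0.0543% passed for COX1 and 2 genes or 0.00987% for COX2). SPARC in COX3 was the only pair of a member and a treatment to pass in this comparison. In the 8 treatments without a COX target SPARC ranged from -0.03 after CYTB silencing (SE 0.13) to 0.16 after ATP8 silencing (SE 0.12) against control. Only 20 of 42 treated libraries were below the control mean of their batch.

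**Figure D2:**
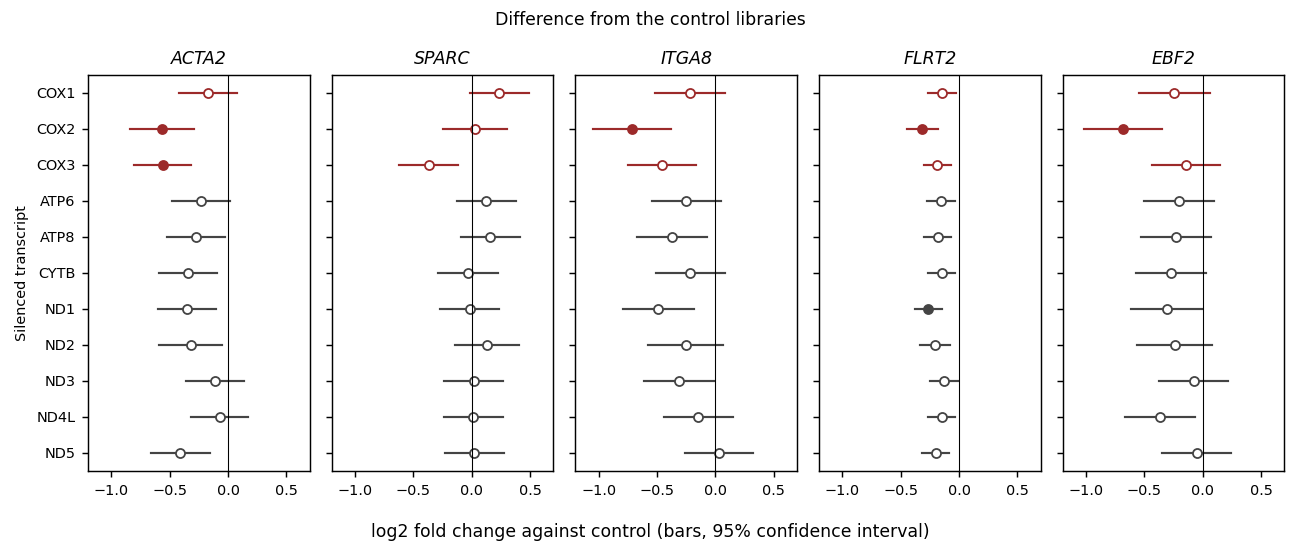
Fitted log2 fold change against control (x axis) of the 5 genes in each of 11 treatments (y axis), with 95% confidence intervals as bars. Red marks COX1, COX2 and COX3, dark grey the other 8, and filled points are the 6 pairs with an adjusted p under the threshold in the fit of all libraries. ACTA2, FLRT2 and EBF2 lie left of 0 in all 11 treatments, and SPARC in 3.

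Over the 15 pairs of a gene and a COX treatment, 13 had a log2 fold change below 0 and 5 were called, all lower (ACTA2, ITGA8, FLRT2 and EBF2 in COX2, ACTA2 in COX3). The share of all genes called lower was 0.0197% in COX1, 0.217% in COX2 and 0.128% in COX3, and nothing follows from the members' count because the members were chosen on these contrasts. All 5 COX calls were lost without Control replicate 4. The log2 fold changes were then -0.46 for ACTA2, -0.78 for ITGA8, -0.30 for FLRT2 and -0.66 for EBF2 in COX2, and -0.46 for ACTA2 in COX3. The same calls came to 3 without Control replicate 1, to 2 without Control replicate 3, to 2 without COX2 replicate 2 and to 1 without COX2 replicate 3.

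Values below control were also the more frequent ones in the treatments that had no part in the choice, apart from FLRT2 in ND1. Of the 40 pairs of a gene and one of the other 8 treatments, 33 had a log2 fold change below 0 and 1 was called (FLRT2 in ND1, where 0.0395% of genes were called lower), against 0.131% of all such pairs. That call was lost on leaving out any one of its own 8 libraries, and held in 14 of 46 leave-outs in all. An unadjusted p under 0.05 was reached by 18 of the 40 pairs, against 9.54% of all pairs. These comparisons share their control libraries with the COX comparisons, so they are not separate evidence of a direction. ACTA2, FLRT2 and EBF2 were below 0 in all 11 treatments, as were 10.8% of genes (12.8% were below 0 in all of the 8 treatments without a COX target), and ITGA8 in 10 of 11, where 19.7% of genes had at least 10.

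Control libraries drop out when the COX treatments are set against the other treatments. The mean of COX1, COX2 and COX3 differed from the mean of the other 8 by -0.17 (SE 0.063) on the log2 scale for ACTA2 and by -0.21 (SE 0.075) for ITGA8. It differed by -0.14 (SE 0.075) for EBF2, -0.09 (SE 0.062) for SPARC and -0.04 (SE 0.029) for FLRT2. Without COX2 replicate 4 the EBF2 value was -0.23. The members were chosen on COX libraries, so these differences carry no test.

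By treatment, ITGA8 and EBF2 were lowest after COX2 silencing, at -0.46 (SE 0.13) and -0.47 (SE 0.13) from the mean of the 8, and SPARC after COX3 silencing, at -0.42 (SE 0.092). ACTA2 was lower by a log2 difference of -0.30 after both COX2 and COX3 silencing (SE 0.11 and 0.092). FLRT2 differed by -0.13 (SE 0.051) in COX2 and by -0.01 (SE 0.043) in COX3, so its COX3 value lay among those of the other treatments. COX1 silencing differed from the 8 by 0.18 (SE 0.091) for SPARC, by 0.09 (SE 0.093) for ACTA2 and by less than its SE for ITGA8, FLRT2 and EBF2.

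The order of the 12 conditions mostly consists of steps smaller than their error. Of the 55 steps between neighbours in the order of the 5 genes, 53 were smaller than 2 SE of the difference. The exceptions were the step from COX3 to CYTB for SPARC, 0.33 (SE 0.12), and the step from ND3 to Control for FLRT2, 0.13 (SE 0.058). COX2 was lowest for ACTA2, ITGA8, FLRT2 and EBF2. For ACTA2 the next was COX3, 0.01 above it (SE 0.14). For ITGA8 and FLRT2 the next was ND1, 0.22 (SE 0.17) and 0.05 (SE 0.064) above it, and for EBF2 it was ND4L, 0.32 (SE 0.17) above it.

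Whether the 5 genes vary between treatments was tested in the 31 libraries of the 8 treatments without a COX target, which took no part in the choice except FLRT2 in ND1. In edgeR's quasi-likelihood F test over the 8 conditions, none of the 5 genes passed, against 0.315% of the 19999 genes tested there. Adjusted p was 0.303 for ITGA8, 0.455 for ACTA2, 0.616 for EBF2, 0.778 for FLRT2 and 0.867 for SPARC, and only ITGA8 had an unadjusted p under 0.05 (0.0119), as did 11.3% of genes. DESeq2's likelihood ratio test called none of the 5.

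Set one at a time against the mean of the other 7, 0 of 40 pairs passed in edgeR's quasi-likelihood test, against 0.122% of all pairs, and 5 had an unadjusted p under 0.05, against 7.77% of all pairs. The pair nearest the threshold was ITGA8 in ND5, with a log2 difference of 0.32 (SE 0.093; adjusted p = 0.0921). It passed in DESeq2 (0.32; adjusted p = 0.0427) and without ND5 replicate 3 (0.42; adjusted p = 0.0491). In the 31 libraries ND5 held 12.3 and 12.5 CPM of ITGA8 in batch 1, where no library of the other 7 treatments exceeded 11.9 CPM, and 14.7 and 21.0 CPM in batch 2, where the others reached 18.8 CPM. ITGA8 in ND1 had a log2 difference of -0.27 (SE 0.099; adjusted p = 0.298), and ACTA2 in ND4L one of 0.22 (SE 0.085; adjusted p = 0.313).

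Between the batches 3 of the genes differed by more than they did between most treatments. In the same 31 libraries SPARC was at 7.14 CPM ± 0.675 in batch 1 (SD, n = 15) and 4.56 CPM ± 0.547 in batch 2 (SD, n = 16), a log2 difference, batch 2 minus batch 1, of -0.65 (SE 0.063; adjusted p = 1.80e-11, edgeR). ITGA8 went the other way, from 10.0 CPM ± 1.35 to 15.0 CPM ± 2.80, by 0.59 (SE 0.065; adjusted p = 6.71e-10, edgeR), and EBF2 from 4.04 CPM ± 0.452 to 5.67 CPM ± 0.699, by 0.49 (SE 0.064; adjusted p = 2.92e-08, edgeR). FLRT2 differed by -0.07 (SE 0.032; adjusted p = 0.0489, edgeR), a call lost in 25 of 36 alternatives, and ACTA2 by -0.11 (SE 0.058; adjusted p = 0.131, edgeR). Such differences are common: 50.4% of genes differed between batches. All calls of members against control, in COX and other treatments alike, were lost without a term for the batch, and in either batch alone.

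**Figure D3:**
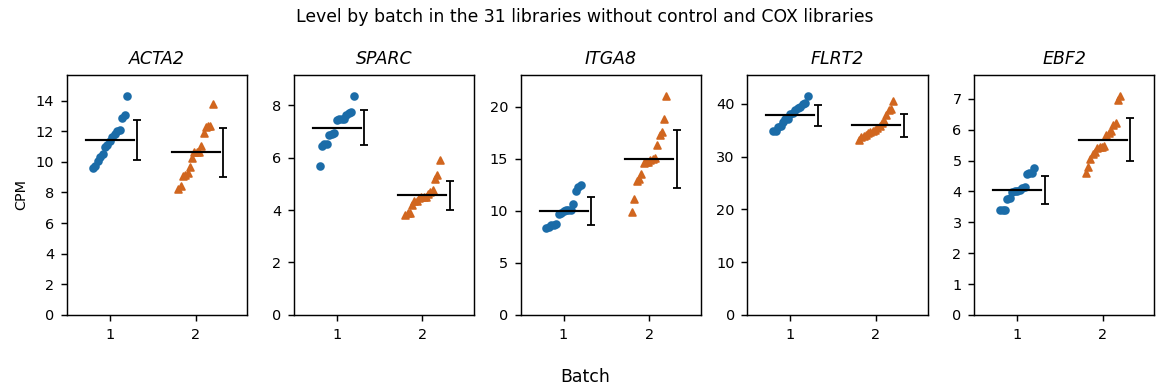
CPM (y axis, from 0) of the 5 genes in batches 1 and 2 (x axis) over the 31 libraries of the treatments without a COX target. Points are libraries, long bars the means and error bars the SD; SPARC is lower and ITGA8 and EBF2 are higher in batch 2, with SPARC at 5.68 to 8.33 CPM in batch 1 and 3.80 to 5.88 CPM in batch 2.

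Few other genes of the same families and pathways were called. Of 41 tested genes of structural matrix and basement membrane (collagens, laminins and the like), none was called in any of the 11 treatments, and the list's median log2 fold change ranged from -0.04 to 0.08, where the median of all genes ranged from -0.0032 to 0.0040. No call was made among 20 tested genes of the TGF-beta pathway, a main inducer of ACTA2 and matrix genes, with medians from -0.04 to 0.02, nor among 11 epithelial and mesenchymal markers. Among 27 genes of the actin cytoskeleton and SRF targets ACTA2 was the only one called, and its median was above 0 in all 11 treatments, from 0.01 to 0.08. Among 24 integrins ITGA8, among 14 FLRT proteins and receptors FLRT2, and among 8 EBF factors and cofactors EBF2 was the only gene called. The members were picked for these calls, so the counts describe the other genes of each list. The share of genes called in either direction was 0.0543% in COX1, 0.469% in COX2 and 0.306% in COX3, and over all pairs of a gene and a treatment it was 0.171%.

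In the list of 18 tested matricellular proteins, which includes SPARC, the only gene called was TNC, tenascin-C, a large glycoprotein of remodelling matrix. TNC was at 85.8 CPM ± 8.62 in control (SD, n = 4), 111 CPM ± 19.1 after COX2 silencing (SD, n = 3) and 114 CPM ± 11.3 after ND5 silencing (SD, n = 4). Its log2 fold change was 0.40 (SE 0.10, adjusted p = 0.0421, edgeR) in COX2 and 0.41 (SE 0.093, adjusted p = 0.0367, edgeR) in ND5, where 0.158% of genes were called. Each call held in 50 of 58 alternatives. Of these, 46 each left out a library, in most cases from a treatment outside the comparison. The count thus says little about dependence on the compared libraries, and does not make the TNC calls firmer than those of the members. Both TNC calls were lost without a batch term and without Control replicate 4 (adjusted p = 0.204 in COX2 and 0.202 in ND5, edgeR). TNC thus rose in a treatment in which ACTA2, ITGA8, FLRT2 and EBF2 were at their lowest values. The FLRT list had a median below 0 in all 11 treatments, from -0.14 to -0.01.

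No paralog or binding partner that could be tested was called in any treatment. Over all pairs of a gene and a treatment 0.171% were called, so a list this short would hold few calls or none. The cytoplasmic actins ACTB and ACTG1, at 1934 and 2919 CPM on average, had log2 fold changes of 0.06 and 0.13 in COX2 and -0.02 and 0.04 in COX3. TAGLN and CNN1, which are smooth muscle genes induced by SRF together with ACTA2, were at 4.74 and 0.58 CPM and had values of 0.17 and 0.28 in COX2. ITGB1, the partner chain of ITGA8, was at 414 CPM and its values ranged from -0.04 to 0.07 over the 11 treatments. The ITGA8 ligands FN1 and NPNT, fibronectin and nephronectin, had -0.11 and -0.17 in COX2.

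For FLRT2, the paralog FLRT3 ranged from -0.28 to 0.03 and the receptor UNC5C from -0.18 to -0.01. UNC5B and the latrophilin ADGRL3 had -0.20 and -0.15 in COX2. The EBF2 paralogs EBF1, EBF3 and EBF4 had -0.26, -0.14 and -0.14 in COX2. For SPARC, the collagen IV chains COL4A1 and COL4A2, which it binds, had 0.01 and 0.14 in COX2 and 0.03 and 0.05 in COX3, and the related SMOC1 had -0.17 in COX3. ACTG2, MYL9 and UNC5D were too low to be tested.

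Reads of overlapping genes may bear on ACTA2, which was not tested. On the opposite strand the span of FAS shares 758 bases with that of ACTA2, STAMBPL1 40080 bases and the antisense gene ACTA2-AS1 5747 bases. These spans include introns, the deposited length of ACTA2 is 2976 bases, and shared exon bases were not counted. Whether counting used the strand is not given in the sources used here. FAS, a death receptor at 48.5 CPM, had log2 fold changes of -0.20 in both COX2 (SE 0.067) and COX3 (SE 0.061), with a lowest adjusted p of 0.0881 over the 11 treatments. STAMBPL1 had -0.16 (SE 0.086) in COX2 and -0.07 (SE 0.077) in COX3. Without strand, reads of ACTA2 and of these genes cannot be told apart where they overlap. SPARC overlaps the antisense gene CLMAT3, which had at most 2 counts in a library.

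Likeness of pattern was measured as Pearson's r of log2 CPM with the batch mean removed, over 46 libraries and 13066 protein-coding genes, and is a description: the libraries share their preparation and their controls. ITGA8 was most like IGFBP5 (r = 0.84), WNT5A (0.84) and AMOT (0.82), and these stayed at 0.80, 0.74 and 0.75 over the 31 libraries without control and COX treatments. ACTA2 was most like HOXB9 (0.77), CMTM3 (0.70) and BTG2 (0.68), FLRT2 most like AMOT (0.69), SLC5A3 (0.67) and RBM5 (0.67), and EBF2 most like SRGAP3 (0.64), FRMPD4 (0.60) and WNT5A (0.60). SPARC had the weakest matches, WFDC2 (0.57), CD83 (0.55) and TBL1X (0.53), which dropped to 0.29, 0.29 and 0.33 over the 31 libraries. Over the same libraries the EBF2 matches dropped to 0.47, 0.43 and 0.41. Those of ACTA2 were 0.70, 0.64 and, for BTG2, 0.44, and those of FLRT2 were 0.65, 0.56 and 0.56. AMOT was named for both ITGA8 and FLRT2 and WNT5A for both ITGA8 and EBF2.

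Among themselves the 5 genes had r between -0.04 (SPARC and EBF2) and 0.58 (ITGA8 and FLRT2) over the 46 libraries, with a median of 0.38 over the 10 pairs. Over the 31 libraries the values were 0.05 to 0.49. ITGA8, FLRT2 and EBF2 were the most alike, at 0.54 to 0.58 over the 46 libraries and 0.39 to 0.49 over the 31. SPARC had at most 0.36 with any other member over the 46 libraries.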

How the data were processed

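HEK293T cells were profiled by poly(A) RNA-seq in 46 libraries of 12 conditions. Per the labels and the study's methods, the authors used GRCh38.p12, R 4.3.0, DESeq2 1.40.2 and limma 3.56.2 for a batch correction; the deposited values are raw read counts per gene, from before that step, with a gene length in bases as a number deposited beside them. Which aligner and counter were run, and whether strand was used, is not given in the sources used here. The labels describe single-end and the methods paired-end reads. All 58735 gene IDs match GENCODE 29 by ID, start and end. Each count column was matched to its sample.

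Members and gene lists were chosen with earlier results of these data known. Tests on the counts used edgeR 4.0.16 under R 4.3.3 (TMM, filterByExpr with a minimum count of 10, quasi-likelihood test with condition and batch, Benjamini-Hochberg adjustment over all genes tested, threshold 0.05). log2 CPM carries a prior count of 2. The fit of all libraries held 20272 genes, that of the 31 libraries 19999. Alternatives were no batch term, a replicate block, DESeq2 1.42.0 (with a batch term, or after batch correction in limma 3.58.1), RLE size factors, no filter, a minimum count of 50, library sizes from nuclear genes, each batch alone, COX3 replicate 4 drawn down to 23345508 counts, only the libraries compared, each library left out, Spearman correlation and likeness in 31 libraries. The scripts were tested on simulated counts.

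Named were the 5 members, listed paralogs and partners, overlapping genes, the silenced COX mRNAs, up to 4 called genes per list, and the 3 protein-coding genes most like each member (mean CPM of at least 1). Sequences are from GENCODE 29 and RefSeq (GRCh38.p14), where 4 of the 5 members matched a promoter.

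Replicate pairs differed by more than sampling noise (66 pairs, whose chi-square per degree of freedom was 3.24 to 24.5). The study's methods call the replicates biological. How cultures within a batch were kept apart is not given in the sources used here, and p-values measure the spread between these libraries. Total counts of 18876395 to 100698084 limit the precision; SPARC and EBF2 had as few as 55 counts in a library.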

Additional observations from a re-analysis of the deposited data

Results flagged for a closer look

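Of 50 groups of 4 libraries, 1 held a library far from the others. The rule used flags about 1 in 20 groups drawn from a single normal spread. These groups mix 2 batches, so that rate need not hold here. ITGA8 after COX1 silencing was at 18.3 CPM in replicate 4, against 10.2, 10.8 and 11.5 CPM in the other replicates, a gap to the nearest of 0.843 of the group's range, above Dixon's critical value. Replicates 3 and 4, the lowest and the highest of these libraries, are both of batch 2. ITGA8 was also higher in replicate 4 than in replicate 3 in every other treatment, such as 12.6 against 8.38 CPM after COX2 silencing. In control it was not, at 15.2 against 15.7 CPM.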

How the results depend on the processing

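The calls of members against control rest on few libraries and on the batch term. The 5 COX calls came to 0 without a batch term and to 0 in batch 1 or batch 2 alone, and ranged from 0 to 5 when 1 of 46 libraries was left out; the cause was not tested beyond the fewer samples. The 1 call in the other 8 treatments, FLRT2 in ND1, came to 0 without a batch term, in either batch alone and with library sizes from nuclear genes, to 2 with the replicate block and without a filter, to 3 with only the libraries compared, and ranged from 0 to 1 over the libraries left out, with 0 in 32 of 46. The log2 differences of the COX treatments from the other 8 stayed below 0 for all 5 genes in 14 alternatives each, EBF2 between -0.23 and -0.085 with COX libraries left out. The F test in the 31 libraries gave 1 call (ITGA8) with the replicate block and without a filter, and no call in 31 leave-outs. One treatment against the other 7 gave 1 call (ITGA8 in ND5) with the replicate block, with DESeq2 and without a filter, and 0 to 1 over the leave-outs. The batch calls of members numbered 3 or 4 throughout. Deviations of same-numbered libraries of different conditions from their group means correlated in all pairs (r from 0.101 to 0.379). Such libraries share a batch. Within batches r ran from -0.044 to 0.12 over 111 pairs of conditions, with a median of 0.023 and 1 over 0.1. Pairing by number beyond the batch was thus small by this measure, which is not given per gene. ITGA8 was higher in replicate 4 than in replicate 3 in every treatment, but not in control (15.2 against 15.7 CPM). ACTA2 was higher in replicate 4 in every condition, while SPARC, FLRT2 and EBF2 went in both directions. Such pairing was not tested, and the main fit holds no term for it. With the replicate block in place of the batch the COX calls came to 6, ITGA8 being called also in COX3 (-0.48) and ND1 (-0.50); ITGA8 passed the F test (adjusted p = 0.0309, edgeR) and in ND5 against the other 7 (0.32; adjusted p = 0.0101, edgeR), and no other call of a member changed. Of 46 libraries, 40 correlated best with their own number, a hint from the data and not the design. No value of a called pair changed sign. Counts were fewest for SPARC and EBF2, but the SE against control was 0.14 to 0.16 for ITGA8 and 0.12 to 0.14 for SPARC.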
